A study of Equus caballus with 3 samples.

Results

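MGP encodes matrix Gla protein, a small secreted protein of cartilage, vessel wall and other connective tissue. It is 1 of the 29850 genes listed in all 3 deposited matrices of equine mesenchymal stromal cells (MSCs), where it lies on chromosome 6, minus strand, of EquCab3.0. The gene was chosen by its measured level, which differed between the sources of MSCs, so its levels are given as a description without a test. The MSCs were grown from 3 tissues, fat (adipose tissue, AT), marrow of bone (BM) and circulating blood (PB), of a single healthy Warmblood mare, aged 10 years, with no treatment. Each of the 3 sources gave 1 library (10x Genomics 3' chemistry, version 2), so differences between sources cannot be told apart from differences between cultures, libraries or this animal and others. Cells of 1 library are not replicates, and every interval below is a 95% interval that covers counting error only.

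Matrix Gla protein carries residues of gamma-carboxyglutamic acid, which are made from glutamic acid by the vitamin K-dependent enzyme GGCX while VKORC1 returns vitamin K to its active form. The carboxylated protein binds calcium mineral and is known as an inhibitor of calcification of arteries and cartilage, and it also binds bone morphogenetic proteins (BMPs). In the MSC field the gene is of interest because the same cells are used for their capacity to form bone and cartilage.

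Within the limits of 2500 to 15000 unique molecular identifiers (UMIs) and at most 3% mitochondrial UMIs, 5403 AT, 5580 BM and 5318 PB cells were kept, with median depths of 7291, 6874 and 7750 UMIs. The titles of the samples name the 3 tissues, whereas the source name given to all of them is that of blood mononuclear cells. Markers of blood and endothelial cells were low in every class of cells compared below: the 11 haematopoietic markers in the matrices summed to at most 60.3 CPM (UMIs relative to 1000000 of the class) and the 9 endothelial markers to at most 2.25 CPM. All 5318 kept PB barcodes were also listed in the AT matrix, in 37 instances as a kept AT cell and otherwise as a barcode with a median of 828 UMIs there. Of the kept AT cells, 74 shared a barcode with the PB matrix and 48 with the BM matrix, and of the kept BM cells 86 shared one with the AT matrix and 44 with the PB matrix.

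MGP was highest in AT, intermediate in PB and lowest in BM. In AT, 14873 MGP UMIs were counted, or 372 CPM (366 to 378), which placed the gene 323rd among all genes of that library. PB held 4860 MGP UMIs, or 117 CPM (114 to 120.1; rank 1064). BM held 659, or 16.4 CPM (15.2 to 17.7; rank 5404). The AT level was 3.19-fold the PB level (3.08 to 3.29) and 22.7-fold the BM level (21.0 to 24.6), and PB was 7.13-fold above BM (6.57 to 7.75). On the scale of log2(CPM + 1) the differences were 1.66 for AT over PB, 4.42 for AT over BM and 2.76 for PB over BM. The intervals of the 3 libraries did not overlap, but the spread between cultures of 1 source was not measured.

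The share of cells with any MGP UMI had the same order. It was 72.2% in AT (71.0 to 73.4), 32.1% in PB (30.9 to 33.4) and 6.72% in BM (6.08 to 7.41, exact Clopper-Pearson). After each cell was thinned to 2500 UMIs the shares were 48.4%, 17.5% and 3.12%. No cell type known to lack MGP was present for a background share. The lowest share of any rebuilt cluster was 56.5% in AT, in cells with a median of 9732 UMIs, 12.3% in PB (median 10851 UMIs) and 1.86% in BM (median 6416 UMIs). Barcodes under 2500 UMIs gave 8.42 MGP CPM in BM (3.09 to 18.3), from 6 UMIs, and the part of free RNA in the BM values was not tested.

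Within each source MGP was unevenly spread over the cells. In AT, 1501 cells held no MGP UMI, 1086 held 1, 764 held 2 and 527 held 3, while 183 held over 10. In PB, 3610 cells held none, 829 held 1 and 344 held 2, yet 68 held over 10. In BM, 5205 cells held none, 254 held 1 and 55 held 2, and 2 cells held over 10. The highest count in a cell was 94 UMIs in AT, 73 in PB and 14 in BM. Relative to 10000 UMIs of the cell, the median was 2.44 in AT and 0 in the others, the 90th percentile 9.71, 3.38 and 0 in AT, PB and BM, and the 99th percentile 20.9, 16.2 and 3.77.

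**Figure D1:**
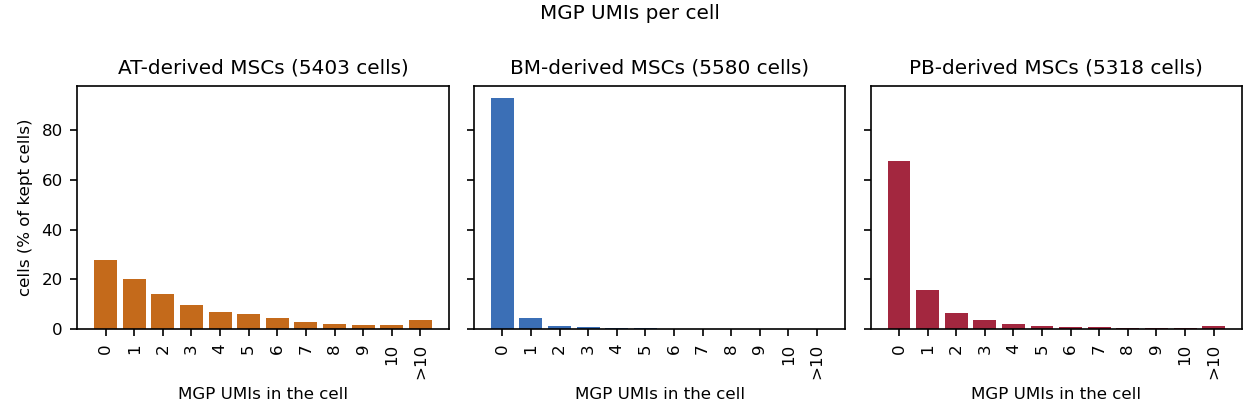
Share of kept cells (%, vertical axis) by the number of MGP UMIs in the cell (horizontal axis, last bar over 10) for MSCs of the 3 sources, AT, BM and PB. Among AT cells 27.8% of cells held none, in PB 67.9% and in BM 93.3%, and the AT bars extend furthest to the right.

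Cells without an MGP UMI were more frequent than equal expression in all cells of a source would give. At the mean rate and each cell's own depth, counting alone would leave 9.59% of AT, 41.9% of PB and 88.9% of BM cells without a UMI, against 27.8%, 67.9% and 93.3% found. The mean and SD over cells were 2.75 ± 3.73 UMIs in AT (n = 5403 cells), 0.914 ± 2.61 in PB (n = 5318) and 0.118 ± 0.612 in BM (n = 5580). The variance over the mean (Fano factor, 1 for counting alone in cells of equal depth) was 5.05 in AT, 7.45 in PB and 3.17 in BM. It was taken on UMIs not adjusted for depth, so 1 is not the reference here. Among the genes within 2-fold of the MGP level in the same library, this ranked 15th of 479 in AT, 7th of 1455 in PB and 14th of 3919 in BM, where the median Fano factors were 1.52, 1.21 and 1.06. The 10% of cells with most MGP UMIs, not adjusted for depth, held 38.6% of the MGP UMIs in AT and 68.6% in PB. In BM they held 100%, because fewer than 10% of the cells had any.

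The MGP level also varied between clusters rebuilt from the same UMIs, MGP included, so that a cluster's level describes it and tests nothing. In AT it ranged from 168 CPM in cluster 6, led by the DNA replication and mitosis genes CLSPN and TOP2A and without a cell called in G1, to 662 CPM in cluster 0. Cluster 0 was led by SCARA5, a scavenger receptor for ferritin, and CTSK, the collagen-cleaving protease cathepsin K. It held 1052 cells, or 19.5% of AT, but 37.3% of the cells called MGP-high below. Cluster 1, led by the muscle genes DES, ACTG2, CNN1 and ACTA2, had 190 CPM (181 to 199.8), while clusters 2 and 5 had 487 and 485 CPM. Cluster 2 was led by CDKN3 and CDCA3, with the proliferation gene BIRC5 also among its leading genes. Only 33.8% of its cells were called in G1, yet 36.2% were MGP-high, so MGP was not low in every cluster led by cycling genes. The clusters of PB and BM also led by CDKN3 and CDCA3 were below the level of their source. These were PB cluster 3 (60.3 CPM) and BM cluster 5 (4.10 CPM). AT cluster 5 was led by ID1, ID3 and ID2, which BMP signalling is known to induce.

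In PB the clusters ranged from 20.3 CPM (16.3 to 25.1) in cluster 4, led by UHRF1 and CDK1 and with 5.17% of cells in G1, to 729 CPM (679 to 782) in cluster 8. Cluster 8 was small, with 149 cells or 2.8% of PB, and was led by NDUFA4L2, SFRP1, NSG1, MGP and TFPI2. In it 83.9% of cells held an MGP UMI and 55.0% were MGP-high, and it held 23.8% of all MGP-high PB cells. Cluster 7, with 377 cells and the lysosomal and secreted proteins LAMP2, PLTP, PCOLCE and SERPINF1 among its leading genes, had 291 CPM (273 to 310.2) and the lowest median mitochondrial share of the PB clusters (1.03%). Cluster 5, led by IFITM5, TIMP3 and PTH1R, had 166 CPM. The remaining PB clusters lay between 56.3 and 122 CPM.

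In BM the highest clusters were 7 (39.2 CPM, 27.6 to 54.1, 106 cells) and 6 (34.0 CPM, 26.7 to 42.6), whose intervals overlap. Cluster 7 had PCOLCE, SERPINF1, LAMP2 and PLTP among its leading genes, as PB cluster 7 did. Cluster 3, led by CALCA and IGFBP5, had 27.0 CPM and the largest share of cells with a UMI, 18.6%, but 1 MGP-high cell. The lowest were clusters 5 (4.10 CPM, 1.97 to 7.54) and 4 (6.07 CPM, 3.93 to 8.96), whose intervals overlap too. With MGP left out of the genes used for clustering the range was 170.2 to 641 CPM in AT, 19.4 to 619 in PB and 5.03 to 39.8 in BM.

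**Figure D2:**
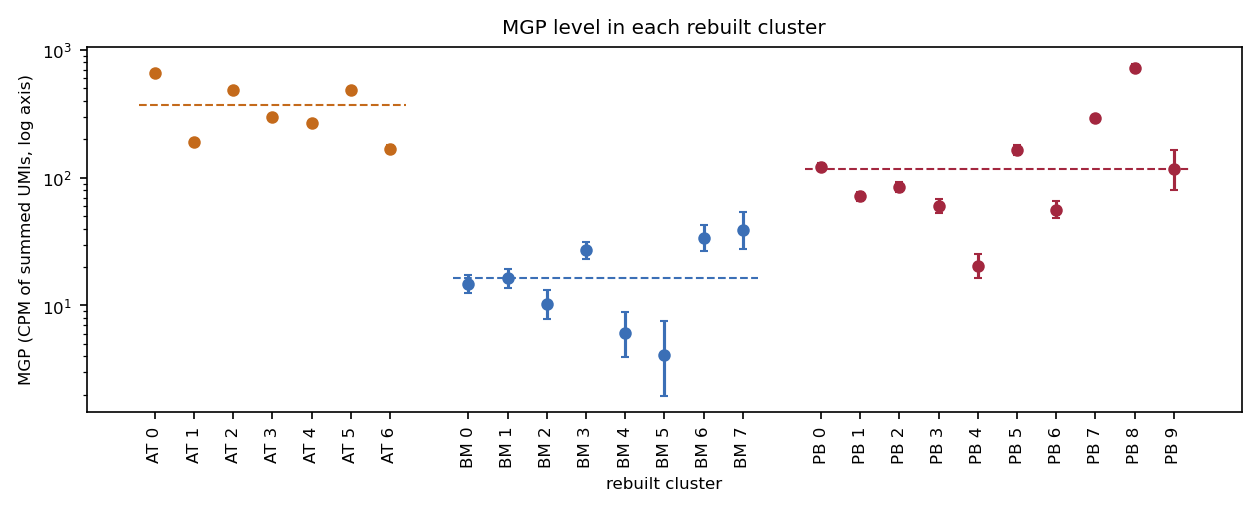
MGP level (CPM of the summed UMIs of a cluster, log axis) in each rebuilt cluster of AT, BM and PB, with exact 95% Poisson intervals for counting error and the level of the whole source as a dashed line. PB spans the widest range, from 20.3 to 729 CPM, and PB cluster 8 reaches the level of AT cluster 0 (662 CPM).

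The genes whose level over clusters was most like that of MGP were sought over the 24 clusters of at least 90 cells, on log2(CPM + 1) centred within each source. Of 2804 genes ranked, GNG11, a G protein gamma subunit, came first with a Pearson r of 0.84. ECM1, extracellular matrix protein 1, followed with 0.80, and then came calpastatin (CAST) with 0.77, transketolase (TKT) with 0.76 and the ATPase OLA1 with 0.76. These are descriptions over clusters that share libraries and were built from the same counts. GNG11 was close to MGP in AT (r = 0.95) and PB (0.95) and less so in BM (0.60).

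Cells with at least 5 MGP UMIs per 10000 UMIs (MGP-high) were then compared, within each source, with cells without an MGP UMI. MGP-high cells numbered 1479 in AT (27.4% of cells), 344 in PB (6.47%) and 37 in BM (0.663%). At the threshold, cells with 4 to below 5 per 10000 numbered 341 in AT, 98 in PB and 15 in BM, with a median of 3 MGP UMIs, and those with 5 to below 6 numbered 284, 72 and 14, with medians of 4, 4 and 3 UMIs. Depth was similar in the classes compared: the median was 6978 UMIs in MGP-high and 6789 in MGP-negative AT cells, and 7267 against 7682.5 in PB. Mitochondrial shares were 1.38% against 1.49% in AT and 1.40% against 1.57% in PB. A cell without an MGP UMI may still express the gene. CPM below are of UMIs summed over the cells of a class with MGP left out of the totals, and log2 ratios are of CPM + 1, which understates the change of low genes.

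Cycling differed between the classes. The CPM summed over 19 proliferation genes were 1029 in AT cells without MGP, 727 in cells above 0 but below 5 per 10000, 572 from 5 to below 10 and 387 at 10 or more. In PB they were 780.0, 497, 392 and 390.3 in the same classes. The share of cells called in G1 was 51.8% without MGP and 62.8% in MGP-high cells of AT, and 57.4% and 64.2% in PB. Phase calls rest on the same counts, and the part of cycling in the ratios below was examined only by repeating them in G1 cells.

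In AT, 37 of 2635 genes detected in 25% or more of the cells of 1 class or the other were at least 1.5-fold higher in MGP-high cells (1.4%) and 58 were at least 1.5-fold lower (2.2%). In PB, 61 of 2894 genes were higher (2.11%) and 51 lower (1.76%). All of these had a counting interval of the ratio that excluded 1. The rules of size and detection made this all but certain, so it adds no support. A 2-fold difference was reached by 4 higher and 14 lower genes in AT and by 7 and 7 in PB. The median log2 ratio of all genes compared was -0.01 in AT and -0.00 in PB. The levels were in order over the 4 classes of rising MGP for 33 of the 37 higher and 54 of the 58 lower genes in AT, and for 51 of 61 and 33 of 51 in PB. Since these genes were chosen by the difference between the outer classes, such an order is favoured, and over all genes compared 497 were ordered upward and 537 downward in AT and 477 and 417 in PB. Ratios were also taken within clusters with at least 20 cells of each class and averaged with equal weight for each cluster. This used all 7 AT clusters and 6 PB clusters (without PB clusters 3, 4, 6 and 9). In AT 4 genes were past 1.5-fold in each direction, and in PB 12 were higher and 17 lower. All of those in AT, but 4 of the 12 and 12 of the 17 in PB, were also past 1.5-fold in the main comparison. Of the genes named below with their values, those past 1.5-fold within clusters were CKS2 (-0.80), DCN (0.585, at the limit), SCARA5 (0.98) and ENSECAG00000030777 (1.05) in AT, and CKS2 (-1.35), CCND1 (-0.89), UBE2S (-0.79), CFL2 (-0.72), ECM1 (0.83), PDCD4 (0.89) and ENSECAG00000030777 (0.94) in PB. All the others compared and named below as higher or lower in AT or PB were short of 1.5-fold within clusters. ACTG2, CNN1 and NDUFA4L2, detected in too few PB cells, have no such value in PB.

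The most marked difference in AT was in contractile genes, which were lower in MGP-high cells. Of the 10 contractile genes compared, 8 were at least 1.5-fold lower and none higher, and the median log2 ratio was -0.99. Calponin 1 (CNN1) had 47.6 CPM in MGP-high and 176 CPM in MGP-negative cells (log2 ratio -1.86, fold 0.244 to 0.299). Smooth muscle gamma actin (ACTG2) had 215 against 699 CPM (-1.70), desmin (DES), an intermediate filament protein, 102 against 318 CPM (-1.63), and smooth muscle alpha actin (ACTA2) 367 against 1127 CPM (-1.61). Transgelin (TAGLN), TPM1, MYL9 and CALD1 lay between -0.74 and -1.02. The list is also what leads AT cluster 1, the cluster with the second lowest MGP level, and within clusters no contractile gene was past 1.5-fold, at a median of -0.33. In PB none of 7 contractile genes compared passed 1.5-fold in either direction, with a median of 0.04. That median is not over the same genes as in AT, since ACTG2, CNN1 and DES have no ratio in PB. In PB, ACTA2 had 507 against 636 CPM (-0.33) and TAGLN 1754 against 1632 CPM (0.10). ACTG2 and CNN1 were detected in too few PB cells to be compared there, and their levels were lower in MGP-high PB cells too, with 16.4 against 62.8 CPM for ACTG2 and 16 against 38.0 CPM for CNN1. Whether AT and PB differ in this respect was not tested, as each has 1 library.

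The latent TGF-beta binding protein LTBP1 was lower beside MGP in AT, with 33.2 against 56.2 CPM (-0.74), and had 62.3 against 90.5 CPM in PB (-0.53). TNFRSF12A, the receptor of the cytokine TWEAK, had 306 against 499.9 CPM in AT (-0.71) and 208 against 425 CPM in PB (-1.03).

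The proteoglycan decorin (DCN) had 2408 CPM in MGP-high and 1454 CPM in MGP-negative AT cells (0.73), and 1840.0 against 1015 CPM in PB (0.86), and it was the only one of 5 small leucine-rich proteoglycans past 1.5-fold in either source. SERPINF1, the anti-angiogenic pigment epithelium-derived factor, had 230 against 127 CPM in AT (0.85) and 518 against 265 CPM in PB (0.97). IGFBP6, a binding protein of insulin-like growth factors, had 505 against 276 CPM in AT (0.87) and 685 against 415 CPM in PB (0.72). Of the collagens and elastic fibre genes, FBLN1 (297 against 180.2 CPM, 0.72) and EFEMP1 (122 against 65.7 CPM, 0.88), which encode fibulins, were higher and COL12A1 lower (66.8 against 103 CPM, -0.61) among 14 compared in AT. Within clusters the ratios were 0.50 (AT) and 0.39 (PB) for SERPINF1, 0.47 and 0.36 for IGFBP6, 0.50 for FBLN1, 0.51 for EFEMP1 and -0.15 for COL12A1, all short of 1.5-fold, and DCN had 0.33 in PB. None of 12 fibre genes passed in PB, where FBLN1 and EFEMP1 were at 0.31 and 11 CPM over all cells.

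Of 12 genes compared in each source from a list of lysosomal genes and galectins that also holds the surface antigen gene XG, 3 were at least 1.5-fold higher in AT (CTSK, LGALS3 and XG) and 3 in PB (CTSK, LAMP2 and LGALS3) and none lower, with median log2 ratios of 0.35 and 0.42. Galectin 3 (LGALS3) had 984 against 514.5 CPM in AT (0.93, fold 1.85 to 1.98) and 1165 against 675 CPM in PB (0.79, fold 1.66 to 1.80). CTSK had 76.8 against 47.2 CPM in AT (0.69) and 211 against 121 CPM in PB (0.79). Its ratio in AT was 0.14 without the cluster highest in MGP and 0.27 after thinning, and in PB 0.99 and 0.70. For any MGP UMI it was 0.51 in AT and 0.17 in PB. LAMP2, a lysosomal membrane protein, passed in PB (68.9 against 36.7 CPM, 0.89) and had 50.3 against 34.8 CPM in AT (0.52). Within clusters none of the 12 was past 1.5-fold in either source.

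**Figure D3:**
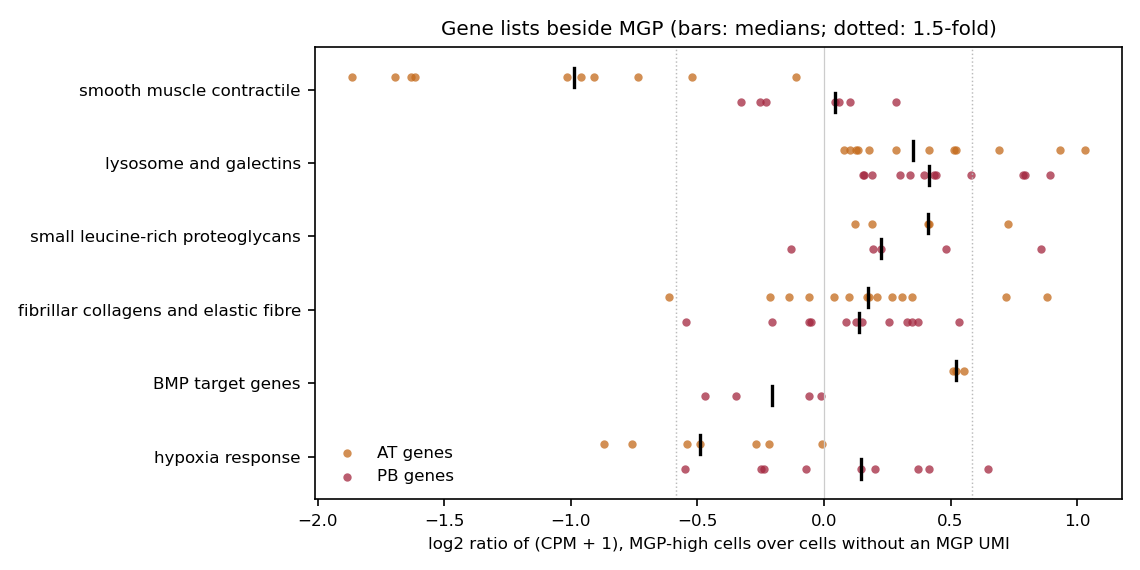
Log2 ratio of (CPM + 1) of MGP-high cells over cells without an MGP UMI (horizontal axis) for the compared members of 6 gene lists, with AT genes in orange, PB genes in red, black bars at the medians and dotted lines at 1.5-fold. The contractile genes are spread below 0 in AT (median -0.99). Those compared in PB, without ACTG2, CNN1 and DES, lie around 0 (median 0.04), while the lysosomal genes and galectins lie above 0 in both.

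The highest ratio of a gene with a symbol in AT was that of SCARA5. This scavenger receptor had 66.3 CPM in MGP-high and 22.6 CPM in MGP-negative cells (1.51, fold 2.52 to 3.42), and in PB it was at 0.22 CPM over all cells. The cell surface antigen gene XG had 123 against 59.6 CPM in AT (1.03) and 101 against 74.4 CPM in PB (0.44). The histamine-degrading enzyme HNMT had 68.1 against 35.4 CPM in AT (0.92) and a log2 ratio of 0.41 in PB, and the calcium-binding protein S100A1 had 105 against 57.5 CPM in AT (0.85) and a ratio of 0.52 in PB. ENSECAG00000030777, a gene on chromosome 21 without a symbol in the matrices, was higher in both sources (1.6 in AT, 1.33 in PB).

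In PB the highest ratio was that of NSG1, an endosomal protein of neurons, with 87.4 CPM in MGP-high and 20.2 CPM in MGP-negative cells (2.06, fold 3.68 to 5.08). TFPI2, an inhibitor of serine proteases, had 103 against 28.9 CPM (1.80). Both lead PB cluster 8. NDUFA4L2, the first of its leading genes and a mitochondrial protein known to respond to hypoxia, was in too few PB cells to be compared, and had 36.1 against 5.41 CPM (fold 5.07 to 8.74). In AT it was lower beside MGP (176 against 299 CPM, -0.76). Without that cluster the log2 ratios were 1.0 for NSG1 and 1.30 for TFPI2, and within clusters NSG1 had -0.05 and TFPI2 0.51. ECM1 had 100.5 against 33.1 CPM in PB (1.57), and 0.83 on average within clusters. In AT ECM1 had 63.1 against 42.7 CPM (0.55). The actin-severing protein gelsolin (GSN) had 445 against 201 CPM in PB (1.15), MTUS1 51.7 against 20.9 CPM (1.27), arginase 2 (ARG2) 58.2 against 28.5 CPM (1.01) and the nucleolar GTPase GNL2 76.7 against 38.7 CPM (0.97). Within clusters these 4 had 0.39, 0.47, 0.51 and 0.39, short of 1.5-fold.

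Of the proliferation list, 2 genes in AT and 3 in PB were detected in enough cells to be compared, and 1 was lower in AT and none in PB. The following genes were named for their own ratios. CKS2, a cofactor of cyclin-dependent kinases, had 55.0 against 138 CPM in AT (-1.31) and 30.8 against 131 CPM in PB (-2.06). UBE2S, a ubiquitin-conjugating enzyme of the anaphase-promoting complex, had 77.1 against 176 CPM in AT (-1.18) and 40.2 against 109.7 CPM in PB (-1.43). The microtubule-destabilizing protein STMN1 had 144 against 263 CPM in AT (-0.86) and 119 against 232 CPM in PB (-0.96), and the histone H2AFZ 533 against 888 CPM (-0.74) and 515 against 890.4 CPM (-0.79). In PB, cyclin D1 (CCND1) had 80.8 against 212 CPM (-1.38) and REEP4, which clears membrane from mitotic chromosomes, 29.1 against 73.3 CPM (-1.30). Among cells called in G1 these differences were smaller: CKS2 had -0.29 in AT and -0.24 in PB, UBE2S -0.78 and -0.17, and STMN1 changed sign to 0.11 and 0.46. CKS2 is in the gene set that calls the phase, so its smaller ratio in G1 cells was favoured in advance. H2AFZ had -0.08 and -0.15, and REEP4 -0.29 in PB. CCND1 had -0.99 in G1 cells of PB.

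The 2 sources had part of their genes in common. Of the genes higher beside MGP, 12 were so in both, which is 32.4% of the AT and 19.7% of the PB genes, and 15 lower genes were shared, or 25.9% and 29.4%. These shares include genes not compared in the other source. Of the higher genes 28 of 37 (AT) and 38 of 61 (PB) were compared there, and of the lower ones 42 of 58 and 40 of 51. Of all genes compared, 1.4% in AT and 2.11% in PB were higher, and 2.2% and 1.76% lower. Among genes compared in both sources, none past 1.5-fold in 1 source passed in the opposite direction in the other. NDUFA4L2, lower in AT, had a higher level in MGP-high PB cells but was in too few of them to be compared. Of the 28 genes higher in AT that were also compared in PB, 27 had the same sign there, and of the 42 lower ones 38 had. Across the 2455 genes compared in both sources the log2 ratios had a Pearson r of 0.69 and a Spearman rho of 0.67, as a description over genes, which are not independent. Among the shared genes with smaller ratios, the translation inhibitor PDCD4 had 60.7 against 36.3 CPM in AT (0.73) and 51.7 against 29.1 CPM in PB (0.81), and the muscle cofilin CFL2 52.6 against 95 CPM (-0.84) and 53.3 against 104 CPM (-0.95). CKAP4, a protein of the endoplasmic reticulum, was lower in both (-0.75 and -0.97), and GNG11 higher (0.69 and 0.72).

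**Figure D4:**
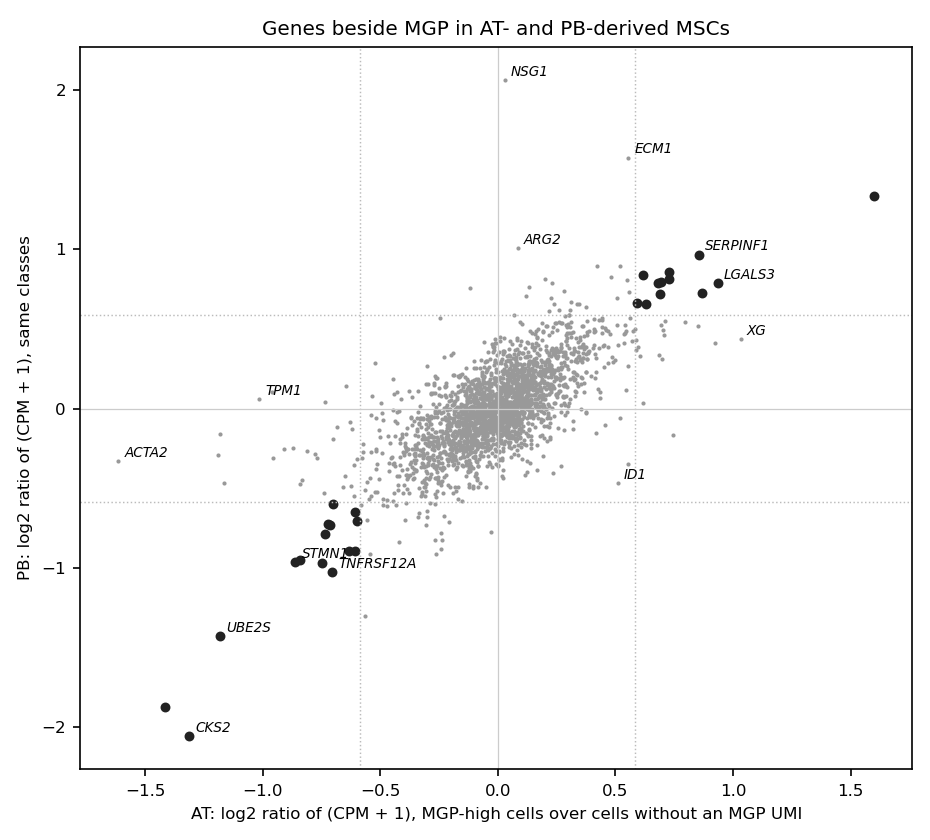
Log2 ratio of (CPM + 1) of MGP-high cells over cells without an MGP UMI in AT (horizontal axis) and PB (vertical axis) for the 2455 genes compared in both, 1 point per gene, with dotted lines at 1.5-fold and large black points for genes past 1.5-fold the same way in both. CKS2 lies low in both sources (-1.31 in AT, -2.06 in PB), NSG1 is high in PB (2.06) and near 0 in AT (0.03), and ACTA2 is low in AT (-1.61).

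**Figure D5:**
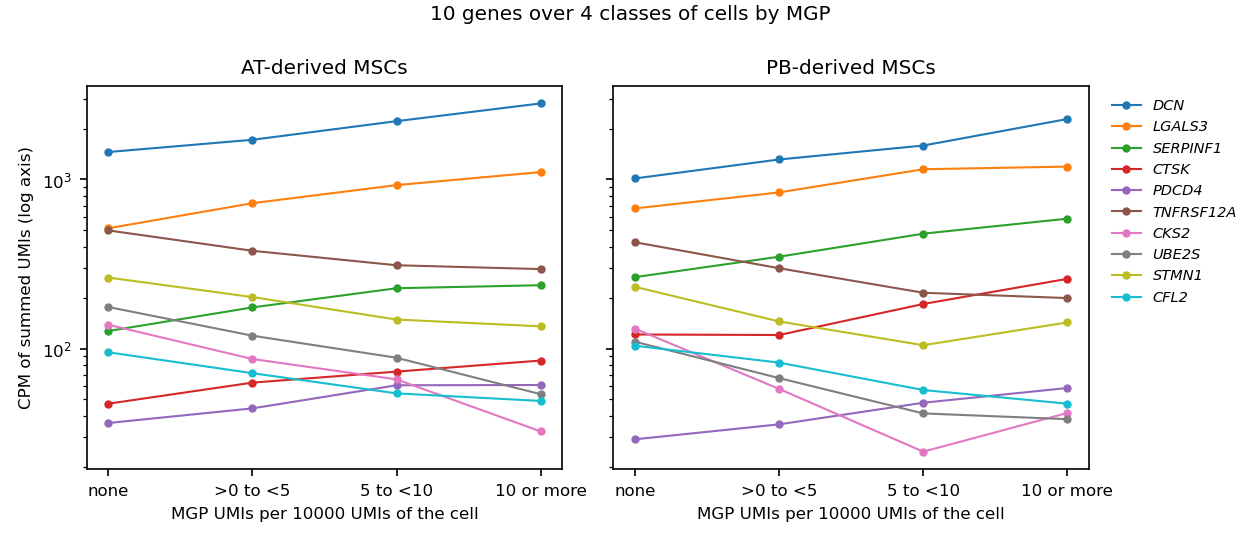
Level (CPM of summed UMIs, log axis) of 10 genes in 4 classes of cells with rising MGP UMIs per 10000, in AT and PB. DCN, LGALS3 and SERPINF1 increase at each step, from 1454 CPM for DCN in AT cells without MGP, whereas TNFRSF12A decreases at each step, from 499.9 CPM in AT.

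Of the 6 genes of the vitamin K cycle in the matrices, 2 could be compared in AT and 3 in PB, and none passed 1.5-fold. VKORC1 had 447 CPM in MGP-high and 416 CPM in MGP-negative AT cells (0.11) and 489 against 456 CPM in PB (0.10), and over all cells 421 (AT), 531 (BM) and 463 CPM (PB). The carboxylase GGCX was detected in too few cells for comparison in AT, where it had 33.5 against 28.6 CPM, and had 44.3 against 29.7 CPM in PB (0.56), close to the limit. Over the alternatives GGCX in PB lay between 0.20 for any MGP UMI and 0.64 without the cluster highest in MGP, the only alternative that passed. CALU, calumenin, known to inhibit the carboxylase, was below its MGP-negative level in both, with 225 against 294 CPM in AT (-0.38) and 207 against 279 CPM in PB (-0.43). Over the 24 clusters CALU had an r of -0.79 with MGP (rank 2799 of 2804). It was singled out after its value was seen. Of the other Gla proteins, 13 were in the matrices, and 6 of these in AT and 7 in BM and in PB had no UMI in the cells compared. The highest was GAS6, a ligand of the TAM receptors, with 36.2 CPM in AT and 35.6 in PB, and 40.0 in BM.

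Of the mineralization genes, ALPL, the alkaline phosphatase that removes the mineral inhibitor pyrophosphate, had 2.88 CPM in AT, 96.0 in BM and 326 in PB over all cells. Within PB it was higher in MGP-high cells (497 against 296 CPM, 0.75), the only gene past 1.5-fold of the 4 mineralization promoters compared there, and 0.07 on average within clusters. Of a list of 12 genes named for inhibition of mineralization, only 2 could be compared in each source, the matrix genes FBN1 and BGN, and neither passed. These 2 do not stand for the rest of the list. ENPP1, which makes pyrophosphate, was at 0.25, 2.68 and 1.06 CPM in AT, BM and PB, and osteopontin (SPP1) at 0.70, 16.6 and 10.9 CPM.

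The ligands BMP2 and BMP4, both known to be bound by matrix Gla protein, had 0.10 and 1.10 CPM in AT, 8.05 and 14 in BM and 4.54 and 7.57 in PB. The BMP antagonist CHRDL1 had 178 CPM in MGP-high and 173 CPM in MGP-negative AT cells. None of the BMP target genes compared, 3 in AT and 4 in PB, passed 1.5-fold, but this call depended on the cells taken. In AT, ID1 had 572 against 401 CPM (0.51, fold 1.37 to 1.48), ID2 74.8 against 51.9 CPM (0.52) and ID3 529 against 360.3 CPM (0.55). In PB the same genes had 237 against 329 CPM (-0.47, fold 0.66 to 0.78), 52.1 against 54.3 CPM (-0.06) and 252 against 321 CPM (-0.35). In AT all 3 passed for cells of at least 10 MGP UMIs per 10000 (median 0.66), and ID1 (0.79) and ID3 (0.70) passed without the cluster highest in MGP. ID3 in AT also passed in G1 cells (0.696) and in cells of at least 6000 UMIs (0.617). Within clusters ID1, ID2 and ID3 had 0.15, 0.31 and 0.29 in AT, and after thinning 0.27, 0.30 and 0.37. Without the corresponding PB cluster ID1 (-0.88) and ID3 (-0.61) were past 1.5-fold lower, whereas in G1 cells of PB ID1 had 0.36 and ID2 0.23. The sign of ID1 and ID2 in PB thus depended on the cells compared, whereas ID3 lay between -0.61 and -0.015 in PB, and the difference between the sources was not tested.

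Of the other lists few members passed 1.5-fold. Of hypoxia genes, NDUFA4L2 and BNIP3, a mitophagy receptor, were lower among 7 compared in AT (BNIP3 378 against 691 CPM, -0.87), and NDRG1 was higher among 9 compared in PB (75.1 against 47.6 CPM, 0.65). The NDRG1 call was lost in G1 cells (0.54), without the cluster highest in MGP (0.52), after thinning (0.52), within clusters (0.45), with a pseudocount of 25 CPM (0.46) and for any MGP UMI (0.10). Of MSC surface antigens, the integrin ITGB1 was lower among 5 compared in AT (161 against 244 CPM, -0.60), at the limit, and none of 5 passed in PB. The ITGB1 call was lost with TMM scaling (-0.57), after thinning (-0.53), with a pseudocount of 25 CPM (-0.53), without the cluster highest in MGP (-0.45), within clusters (-0.28) and for any MGP UMI (-0.43). The proliferation gene lower in AT was that of the chromatin protein HMGB2 (164 against 289 CPM, -0.81), though not in G1 cells of AT (-0.0036). HMGB2 is also in the gene set that calls the phase, so this loss was favoured in advance. In the main setting no member passed in AT or PB of the adipocyte, chondrocyte and tendon, growth arrest, retinoid and vitamin D, immediate early, and chemokine lists. Under some alternatives members of each of these lists but the adipocyte list did pass, such as the chondrocyte and tendon gene in G1 cells of AT (0.59).

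BM had 37 MGP-high cells with 86.5% of them in G1, so few that their counts of genes were not used. Cells with any MGP UMI (375) were compared with the 5205 without one. Of 3259 genes compared, 11 were at least 1.5-fold higher (0.338%) and 9 lower (0.276%). FBLN1 had 60.6 against 31.2 CPM (0.94, fold 1.66 to 2.27), and CHRDL1 51.2 against 32.0 CPM (0.66). The contractile gene ACTG2, lower beside MGP in AT, was higher here, with 289.9 against 175 CPM (0.72, fold 1.54 to 1.78), the only one of 11 contractile genes compared in BM that passed. The adhesion molecule JAM2 had 279.6 against 471 CPM (-0.75), the hypoxia-responsive transcription factor EPAS1 59.9 against 102 CPM (-0.75), and the osteoblast transcription factor DLX5 36.7 against 61.1 CPM (-0.72). In the 37 MGP-high cells several of the genes just named had the opposite sign, beyond counting error only for ACTG2 and DLX5 among them. CTSK, given below, also changed sign, with an MGP-high interval that excludes 1. ACTG2 had 21.4 CPM against 175 CPM in cells without a UMI (-2.98, fold 0.040 to 0.285), FBLN1 12.8 against 31.2 CPM (-1.22, fold 0.085 to 1.20), CHRDL1 17.1 against 32.0 CPM (-0.87, fold 0.145 to 1.37), DLX5 98.3 against 61.1 CPM (0.68, fold 1.017 to 2.42) and JAM2 517 against 471 CPM (0.13, fold 0.910 to 1.31). CTSK and DCN were above the level of MGP-negative cells there, with 709 against 485 CPM for CTSK (0.55, fold 1.25 to 1.71) and 1879.8 against 1069.7 CPM for DCN (0.81, fold 1.596 to 1.93), while in cells with any UMI CTSK had 315 CPM (-0.62) and DCN 1058 CPM (-0.02). The sign in BM thus depended on the class for these genes, but a change is not shown for all of them. The MGP-high intervals of FBLN1, CHRDL1 and JAM2 include 1, and DCN with any UMI was near its MGP-negative level. Cells with a UMI were deeper (median 7891 against 6813 UMIs), 60.3% of them were in G1 against 67.7%, and 121 of the 375 belonged to BM cluster 3, so depth and cluster moved with these values and their part in them was not tested.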

How the data were processed

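The authors deposited raw UMI counts for each gene in each barcode, all whole numbers. Per the labels, Cell Ranger and EquCab3.0 were used, and the study's methods name ESAT for counting. Libraries, barcode limits and clustering settings followed the study's methods, on kept totals of 39980656 (AT), 40239295 (BM) and 41622445 (PB) UMIs. Rare RNA is thus counted with few UMIs, and reads outside the counted 3' ends are not seen. Doublets were not removed, and an alternative dropped 5% of the cells, those of highest doublet score by Scrublet in Scanpy 1.11.5. Clusters were rebuilt in Seurat 5.3.0 with sctransform 0.4.2 on 3000 variable genes at resolution 0.6.

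CPM were taken from summed UMIs, with exact Poisson intervals for levels, exact intervals for ratios of counts and a pseudocount of 1 CPM for log2 ratios (NumPy 2.4.6, SciPy 1.17.1). Genes compared were detected in 25% or more of the cells of 1 class or the other, and a 1.5-fold size took the place of a test, since cells of 1 library are not replicates. The comparison code was checked on simulated counts. TMM factors came from edgeR 4.0.16. Genes were named as the 8 highest and 5 lowest with a symbol in each source, up to 10 shared by AT and PB, list members and the 5 most like MGP over clusters. Further genes (such as DCN, CTSK, TNFRSF12A and ENSECAG00000030777) past 1.5-fold in both sources, the leading genes of clusters, BM genes from the comparison of any MGP UMI, and CALU were chosen after their values were seen. MGP and all 24 gene lists were chosen with earlier results of these data known. No sequence of the gene was at hand for EquCab3.0. One gene that the naming rule picks is not reported here.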

Additional observations from a re-analysis of the deposited data

Results flagged for a closer look

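Barcodes under 2500 UMIs, which the comparisons do not use, also held MGP, above the limit that a count of 0 allows. In the AT matrix, the 5711 such barcodes that are also in the PB matrix had 105 CPM (96.4 to 115) and the 439 in no other matrix had 322 CPM (278 to 371), against 117 CPM in kept PB and 372 CPM in kept AT cells. In the PB matrix, barcodes under the limit had 109 CPM (84.4 to 138), and in the BM matrix 8.42 CPM (3.09 to 18.3). Their origin was not tested.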

How the results depend on the processing

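No paired analysis was possible because each source has 1 library. MGP kept the order AT, PB, BM under all alternatives run. Its level in AT, PB and BM was 396, 129.8 and 17.8 CPM in G1 cells and 401, 122 and 14.5 with TMM scaling. In AT and PB it was 389 and 127 after thinning to 2500 UMIs, 385 and 124 as the mean of single cells, 363 and 112.4 without the upper UMI limit and 339 and 112.4 with all barcodes of at least 500 UMIs. The share of cells with an MGP UMI was 75.7%, 35.3% and 6.03% in G1 cells, 48.4%, 17.5% and 3.12% after thinning, 52.1%, 16.5% and 2.17% for at least 2 UMIs, and 42.2% in AT with all barcodes of at least 500 UMIs. That last setting lets in AT barcodes under 2500 UMIs, and 5711 of all 6155 such barcodes were also in the PB matrix. The highest cluster of at least 90 cells had 528 CPM in AT and 27.0 in BM at resolution 0.4, and 641 in AT and 619 in PB with MGP left out of the variable genes. A BM cluster of 88 cells, just under that size, had 47.0 CPM (33.1 to 64.7) at resolution 0.4.

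Counts of genes beside MGP depended on the settings, given as higher and lower in AT, then in PB. After thinning they were 4 and 15 of 1081 genes compared, then 18 and 12 of 1105, where the main setting compared 2635 and 2894. Thinning also remade the classes, with 2786 AT and 4390 PB cells then without an MGP UMI. The counts were 71 and 90, then 142 and 116, for cells with at least 10 MGP UMIs per 10000. For any MGP UMI they were 9 and 16, then 2 and 10. Within clusters they were 4 and 4, then 12 and 17, of which 4 and 12 in PB were also past 1.5-fold in the main setting. With detection in 5% of cells they were 131 and 278 of 7232 genes compared, then 227 and 405 of 7574. With a pseudocount of 25 CPM they were 15 and 33, then 29 and 20, and at 2-fold 4 and 14, then 7 and 7. In cells of at least 6000 UMIs 100 genes were lower in AT, and in G1 cells 16 were lower in PB. Without the cluster highest in MGP, an alternative chosen after seeing the data, 19 were higher in AT. Of 141 ratios of named genes and list members, 86 were past 1.5-fold, and 3 of these changed sign in 1 setting each: STMN1 in G1 cells (0.11 in AT, 0.46 in PB) and NSG1 within PB clusters (-0.047). Of the 55 ratios below 1.5-fold, 18 changed sign in at least 1 setting, ID1 in PB among them. The cause was not tested.

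The MGP-high BM cells numbered 37, so their gene counts (235 higher and 358 lower of 3105 compared, of which 145 and 182 had an interval that excluded 1) were not used and no alternatives were run on them, and no PB comparison was possible without barcodes of another matrix, since all are in the AT matrix.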
